A study of Homo sapiens with 9 samples.

Results

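The enzymes that hydroxylate and cross-link collagen were examined in A498, a long-established cell line from a human clear cell kidney carcinoma (ccRCC). They were chosen by name, with earlier results of these data known, as 10 of the 27671 genes in the count table. The prolyl 4-hydroxylase subunits were P4HA1, P4HA2 and P4HA3, the lysyl hydroxylases were PLOD1, PLOD2 and PLOD3, and the lysyl oxidases were LOX, LOXL1, LOXL2 and LOXL4.

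RNA sequencing compared 3 groups of 3 biological replicates, named shControl, shBMAL1 and shARNT. Each group was an A498 line infected with a lentiviral pLKO.1 construct and selected in puromycin, so the control cells had also been infected and selected. The hairpin in shBMAL1 targets BMAL1, which dimerizes with CLOCK to drive circadian rhythms, and the hairpin in shARNT targets ARNT, with which HIF1α and HIF2α, the oxygen-regulated alpha subunits, usually pair. The labels give a single line per target, all 3 groups have the same A498 background, and the study asked how far each of the 2 proteins contributes to transcription driven by HIF2α.

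Collagen chains are modified in the endoplasmic reticulum before they fold. Prolyl 4-hydroxylases, tetramers of a catalytic alpha subunit and the shared beta subunit P4HB, hydroxylate prolines, and these hydroxyprolines stabilise the triple helix. Lysyl hydroxylases act on lysines of the same chains, and lysyl oxidases then work outside the cell, where they oxidise lysines and hydroxylysines to the aldehydes from which cross-links form. The hydroxylases use oxygen, iron and 2-oxoglutarate, the lysyl oxidases use copper, and several of these genes are known to respond to hypoxia. A498 cells lack functional VHL, the ligase subunit that marks HIF alpha subunits for degradation.

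The bases just upstream of the transcription start are shown for the 4 enzyme genes whose windows hold the core of a hypoxia response element, since the depleted factors are partners in dimers that bind such DNA. Windows of 250 bases before the start were available for 8 of the 10 genes, from RefSeq on GRCh38.p14. P4HA3 and LOXL2 were not in that set. The letters searched were ACGTG and GCGTG on both strands, which overlap the E-box letters CACGTG, and capitals mark each match, so CACGT is ACGTG read on the other strand. The windows are P4HA1 at chr10:73096867-73097116 on the minus strand, PLOD1 at chr1:11934467-11934716 on the plus strand, PLOD2 at chr3:146161185-146161434 on the minus strand and the first of 3 LOX windows at chr5:122078260-122078509 on the minus strand. Each is written 5′ to 3′ along the gene.
P4HA1: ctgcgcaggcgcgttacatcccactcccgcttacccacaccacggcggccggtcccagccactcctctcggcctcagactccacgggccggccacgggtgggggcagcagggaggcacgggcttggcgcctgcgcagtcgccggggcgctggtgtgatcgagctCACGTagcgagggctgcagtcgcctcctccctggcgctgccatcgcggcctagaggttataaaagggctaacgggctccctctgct
PLOD1: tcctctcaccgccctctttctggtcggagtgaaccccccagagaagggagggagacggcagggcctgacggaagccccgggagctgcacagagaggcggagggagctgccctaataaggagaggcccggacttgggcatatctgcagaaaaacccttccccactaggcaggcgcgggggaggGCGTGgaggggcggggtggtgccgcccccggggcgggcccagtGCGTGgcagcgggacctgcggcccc
PLOD2: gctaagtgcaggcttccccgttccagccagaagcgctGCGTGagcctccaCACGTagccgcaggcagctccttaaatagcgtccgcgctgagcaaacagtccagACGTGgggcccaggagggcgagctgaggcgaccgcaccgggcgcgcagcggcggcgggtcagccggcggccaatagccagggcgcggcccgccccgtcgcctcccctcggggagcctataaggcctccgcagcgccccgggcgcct
LOX: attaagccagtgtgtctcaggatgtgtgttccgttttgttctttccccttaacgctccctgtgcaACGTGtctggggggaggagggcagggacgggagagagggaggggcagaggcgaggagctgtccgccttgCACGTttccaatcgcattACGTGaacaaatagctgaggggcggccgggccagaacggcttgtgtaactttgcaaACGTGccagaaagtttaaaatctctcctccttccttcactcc

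The P4HA1 window holds 1 match, on the reverse strand, with its first base 86 bases before the start. PLOD1 holds 2 matches, 68 and 25 bases before the start, both GCGTG. PLOD2 holds 3 matches, 213, 200 and 146 bases before the start, and the LOX window holds 4, at 185, 116, 98 and 42 bases. The other 2 LOX windows overlap each other and hold the same 2 matches. No match lay in the windows of P4HA2, PLOD3, LOXL1 and LOXL4, and the E-box letters CACGTG were in none of the 8 genes' windows. Among all 35116 windows of this length, 43.2% hold at least 1 match, 7.76% hold at least 3, 3.22% hold at least 4, and 6.34% hold CACGTG. Matches were in 4 of the 8 genes with a window, a share near that of all windows. A match is a run of letters and not evidence of binding.

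Library totals were 35269857 to 36099083 counts, and levels are given as CPM, the counts relative to a library size that was scaled by the TMM method (trimmed means of M values). ARNT was at 50.47 ± 2.24 CPM (SD, n = 3) in shControl, 32.27 ± 1.52 in shBMAL1 and 9.465 ± 0.433 in shARNT. BMAL1, listed under the older symbol ARNTL, was at 16.28 ± 0.395, 5.024 ± 0.789 and 23.85 ± 1.30 CPM, so each targeted transcript was lowest in its own line. ARNT was also lower in shBMAL1 than in shControl (log2 fold change −0.65, adjusted p = 1.55e-08). EPAS1, which encodes HIF2α, had log2 fold changes of −2.22 in shARNT and −0.57 in shBMAL1, and HIF1A rose by 1.48 and 1.59. The part of these shifts in the results below was not tested. All 6 renal epithelial markers reported here (PAX8, PAX2, CDH6, KRT8, KRT18 and EPCAM) passed the filter on low counts, with summed levels of 1900 to 1930 CPM in shControl, 1290 to 1390 in shARNT and 1660 to 1750 in shBMAL1. Single markers differed in direction between shControl and shARNT. The mean CPM of KRT8 went from 1100 to 653 and of CDH6 from 199 to 29.3. That of PAX8 went from 36.0 to 100, and that of KRT18 from 566 to 563. PAX2 went from 9.85 to 6.71 CPM and EPCAM from 0.413 to 0.168, with EPCAM near the floor at 2 to 17 counts per library. KRT8 and KRT18 made up most of each sum. Of 6 fibroblast markers, 1 passed the filter, and their summed level was 2.67 to 2.92 CPM in shControl, 0.430 to 0.530 in shARNT and 0.61 to 0.848 in shBMAL1, with LUM and TCF21 at 0 counts. Endothelial markers, 1 of 4 past the filter, summed to 2.76 to 3.40, 0.506 to 0.833 and 2.84 to 3.82 CPM in the same order. Of 4 leukocyte markers only CD68 passed. CD3E was at 0 counts, PTPRC at 0 to 12 counts per library and LYZ at 0 to 1.

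The prolyl hydroxylase, lysyl hydroxylase and lysyl oxidase transcripts were lower in shARNT than in shControl for all 9 genes that could be tested, with a median log2 fold change of −2.58. The call of LOXL1 was the least firm (95% interval −1.07 to 0.01), and 8 genes were lower with DESeq2, with library size alone, with the GC trend removed, with a minimum fold change of 1.5, at an adjusted p under 0.05 and without any 1 of 4 single libraries. Calls are from the quasi-likelihood F-test of edgeR at a Benjamini-Hochberg adjusted p under 0.1 over 15551 tested genes, of which 41.3% were lower and 40.5% higher in this contrast. The median log2 fold change of all tested genes was −0.01 and their median absolute change was 0.66. As these enzymes were chosen with earlier results of these data known, the shares of all genes are background and no test. In shBMAL1 against shControl, 7 of the 9 were lower and 2 were higher, with a median of −0.75, where 31.5% of all genes were lower and 31.9% higher and the median absolute change was 0.32. Both contrasts share the control libraries. The direct contrast of shARNT with shBMAL1 compares no control library, though the controls enter its filter, scaling and estimate of spread. There 8 of the 9 were lower, none was higher and LOXL1 did not pass, with a median of −2.58. Of all genes, 41.1% were lower and 40.1% higher in the direct contrast. The same tool gives LOXL1 an unadjusted p of 0.0993 in that contrast. With library size alone in place of TMM, the median of all genes moved by 0.24 in shARNT against shControl and by 0.19 in the direct contrast, and 1 of the enzymes, LOXL1, was then called higher in the direct contrast. In such bulk libraries fewer cells that express a gene and less RNA per cell cannot be told apart.

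**Figure D1:**
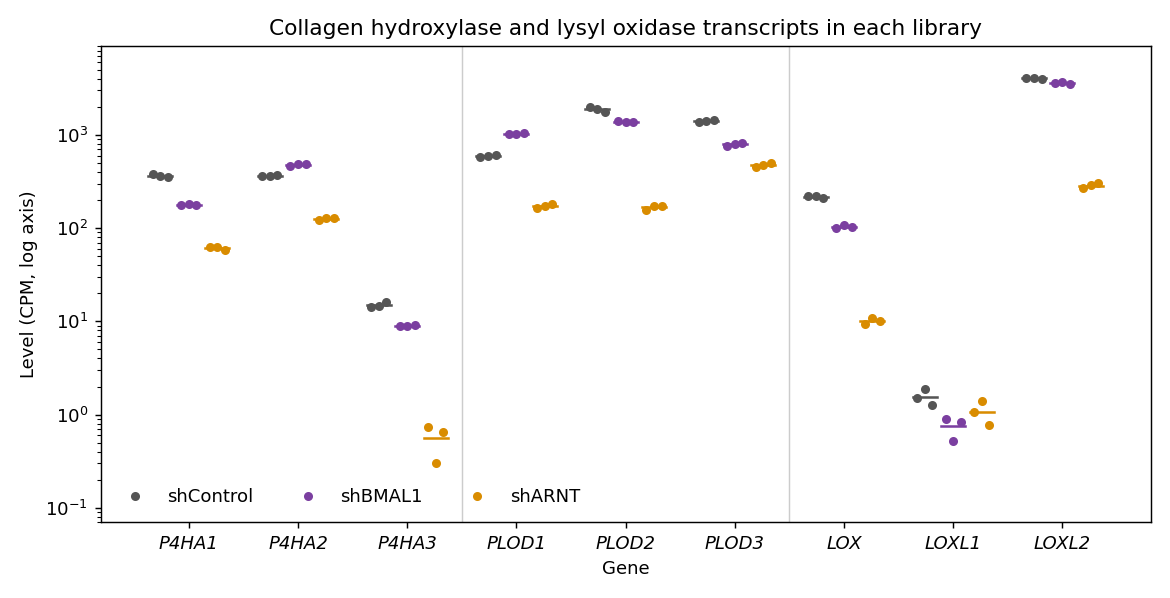
Levels of the 9 tested enzyme transcripts in each library, in CPM on a log axis, with 1 point per library and a line at the mean of each group of 3. The shARNT points lie below both other groups for every gene but LOXL1, and shBMAL1 lies above shControl for P4HA2 and PLOD1.

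P4HA1, the widely expressed alpha subunit of prolyl 4-hydroxylase (10:74766975–74856732, minus strand, GRCh37), was the more lowered of the 2 abundant alpha subunits. Its level was 384.3, 358.4 and 357.1 CPM in the shControl libraries, 176.8, 181.4 and 176.9 in shBMAL1 and 62.31, 63.02 and 58.73 in shARNT. The 3 groups did not overlap, and shBMAL1 lay between the others. How many of all genes had groups apart was not counted, here or for the other enzymes and genes below. Of all tested genes, 41.3% were called lower and 40.5% higher in shARNT, and 31.5% and 31.9% in shBMAL1. Against shControl, P4HA1 fell 5.97-fold in shARNT (log2 fold change −2.58, SE 0.0439, adjusted p = 7.54e-21) and 2.06-fold in shBMAL1 (−1.04, SE 0.0412, adjusted p = 3.8e-14). The direct contrast gave −1.54 (SE 0.0433, adjusted p = 1.76e-17), so the fall in shARNT was the larger by test.

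P4HA2, the second alpha subunit (5:131525840–131631008, minus strand), moved in opposite directions in the 2 lines. It was measured at 360.1, 363.8 and 373.5 CPM in shControl, 460.8, 487.0 and 485.2 in shBMAL1, and 121.5, 128.0 and 127.7 in shARNT. All shBMAL1 libraries were above and all shARNT libraries below the controls. The log2 fold change was −1.54 in shARNT (SE 0.0386, adjusted p = 2.67e-18) and 0.38 in shBMAL1 (SE 0.0372, adjusted p = 2.72e-08), a rise of 1.31-fold. In the direct contrast it was −1.93 (SE 0.0389, adjusted p = 8.86e-20).

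P4HA3, the third and least abundant alpha subunit (11:73946846–74022685, minus strand), fell strongly in shARNT, from a low level. Its levels were 14.36, 14.73 and 15.95 CPM in shControl, 8.921, 8.883 and 9.027 in shBMAL1 and 0.7322, 0.3033 and 0.6551 in shARNT. The last group rests on 29, 12 and 26 counts, and no group overlapped another. The fall was 26.5-fold in shARNT (log2 fold change −4.73, SE 0.169, adjusted p = 8.6e-16) and 1.68-fold in shBMAL1 (−0.75, SE 0.117, adjusted p = 1.69e-05), and the direct contrast gave −3.98 (SE 0.175, adjusted p = 2.61e-14). P4HA3 shares 166 of its 3990 exonic bases with PPME1 on the opposite strand.

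PLOD1, a lysyl hydroxylase of the helical part of collagen (1:11994262–12035595, plus strand), rose in shBMAL1 and fell in shARNT. The shControl libraries held 586.3, 597.8 and 603.8 CPM, the shBMAL1 libraries 1018, 1013 and 1057, and the shARNT libraries 163.4, 172.0 and 180.1. Each shBMAL1 value was above every control and each shARNT value below. The rise was 1.73-fold (log2 fold change 0.79, SE 0.0378, adjusted p = 7.03e-13) and the fall was 3.47-fold (−1.79, SE 0.0393, adjusted p = 3.33e-19). The direct difference of −2.58 (SE 0.0402, adjusted p = 1.76e-21) was of the same sign as that of P4HA2, the other gene with opposite directions.

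PLOD2, which hydroxylates lysines of the collagen telopeptides (3:145752926–145881512, minus strand), was among the abundant transcripts of the control cells, at rank 45 to 53 by counts. Its level was 2013, 1912 and 1779 CPM in shControl, 1411, 1369 and 1380 in shBMAL1 and 158.2, 170.6 and 173.7 in shARNT. The groups were apart, with shBMAL1 nearer to the controls. PLOD2 fell 11.4-fold in shARNT (log2 fold change −3.50, SE 0.0473, adjusted p = 1.99e-22), a change larger than that of 98% of tested genes. In shBMAL1 it fell 1.37-fold (−0.46, SE 0.0426, adjusted p = 1.7e-08), and 64.4% of genes changed less. The direct contrast was −3.05 (SE 0.0464, adjusted p = 1.31e-21).

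PLOD3, a lysyl hydroxylase that also carries glycosyltransferase activity (7:100849258–100861701, minus strand), had the smallest direct difference among the hydroxylases. Levels were 1383, 1422 and 1445 CPM in shControl, 769.1, 788.8 and 809.2 in shBMAL1 and 456.6, 476.9 and 505.3 in shARNT. The groups were again separate and in the order shControl, shBMAL1, shARNT. The falls were 2.95-fold in shARNT (log2 fold change −1.56, SE 0.0391, adjusted p = 2.61e-18) and 1.80-fold in shBMAL1 (−0.84, SE 0.0384, adjusted p = 3.15e-13). Between the 2 depletions the difference was −0.72 (SE 0.0385, adjusted p = 6.59e-13). PLOD3 shares 102 of 5671 exonic bases with ZNHIT1 on the opposite strand.

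LOX, the founding lysyl oxidase (5:121398890–121414108, minus strand), had an estimated fall in shARNT close to that of P4HA3, from a higher level, with 95% intervals that overlap (−4.54 to −4.32 for LOX and −5.06 to −4.40 for P4HA3). The libraries held 219.2, 218.8 and 212.5 CPM in shControl, 100.2, 106.7 and 102.2 in shBMAL1 and 9.291, 10.77 and 10.10 in shARNT. Thus shBMAL1 kept 47.5% of the control mean and shARNT 4.64%, without overlap between groups. The fall in shARNT was 21.6-fold (log2 fold change −4.43, SE 0.0561, adjusted p = 7.79e-23), more than that of 99.2% of tested genes. In shBMAL1 it was 2.10-fold (−1.07, SE 0.0454, adjusted p = 1.05e-13), and the direct contrast gave −3.36 (SE 0.0558, adjusted p = 4.51e-21). LOX shares 138 of 5596 exonic bases with SRFBP1 on the opposite strand.

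LOXL2, a secreted lysyl oxidase that cross-links basement membrane collagen IV (8:23154410–23282841, minus strand), ranked 14 to 16 among all genes by counts in shControl and took 0.381% ± 0.00796 (SD, n = 3) of them. It stood at 4124, 4084 and 4005 CPM in shControl, 3579, 3699 and 3510 in shBMAL1 and 266.3, 287.3 and 303.6 in shARNT. Its rank by counts was 17 to 18 in shBMAL1 and 449 to 538 in shARNT. LOXL2 fell 14.2-fold in shARNT (log2 fold change −3.83, SE 0.0442, adjusted p = 2.41e-23). In shBMAL1 the fall was 1.13-fold (−0.18, SE 0.0393, adjusted p = 6.16e-04), a smaller change than that of most genes, since 30.6% changed less, and it was −0.10 once a trend with GC content was removed (adjusted p = 0.0476). The direct contrast was −3.65 (SE 0.0439, adjusted p = 4.4e-23). LOXL2 shares 120 of 5985 exonic bases with ENTPD4 on the same strand.

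LOXL1, the lysyl oxidase known for its part in elastic fibres (15:74218330–74244478, plus strand), was close to the limit of what these libraries measure. It had 50, 62 and 42 counts in shControl, 31, 18 and 28 in shBMAL1 and 42, 55 and 31 in shARNT, which are 1.502, 1.883 and 1.271 CPM, then 0.9067, 0.5225 and 0.8233, then 1.060, 1.390 and 0.7811. The shBMAL1 libraries were all below the controls, while shARNT overlapped both other groups. LOXL1 fell in shBMAL1 (log2 fold change −1.04, SE 0.294, adjusted p = 0.00476). In shARNT the estimate was −0.53 (SE 0.276, 95% interval −1.07 to 0.01, adjusted p = 0.088), and this call was lost without shControl replicate 1 or 2 or without shARNT replicate 1 or 3, with DESeq2 (adjusted p = 0.174) and with library size alone (−0.29, adjusted p = 0.339). The direct contrast did not pass (0.52, 95% interval −0.07 to 1.11, adjusted p = 0.12), but it passed without shBMAL1 replicate 1 (0.67, adjusted p = 0.088) or without shARNT replicate 3 (0.71, adjusted p = 0.0502). Its exons share 335 of 3637 bases with LOXL1-AS1 on the opposite strand, which had log2 fold changes of −0.78 and −0.26 in shARNT and shBMAL1 (adjusted p = 1.05e-05 and 0.0731), and the use of strand in counting was not stated.

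LOXL4 (10:100007447–100027951, minus strand) had 1 count in shBMAL1 replicate 3, 1 in shARNT replicate 3 and 0 in the other 7 libraries. It did not pass the filter and was not tested.

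**Figure D2:**
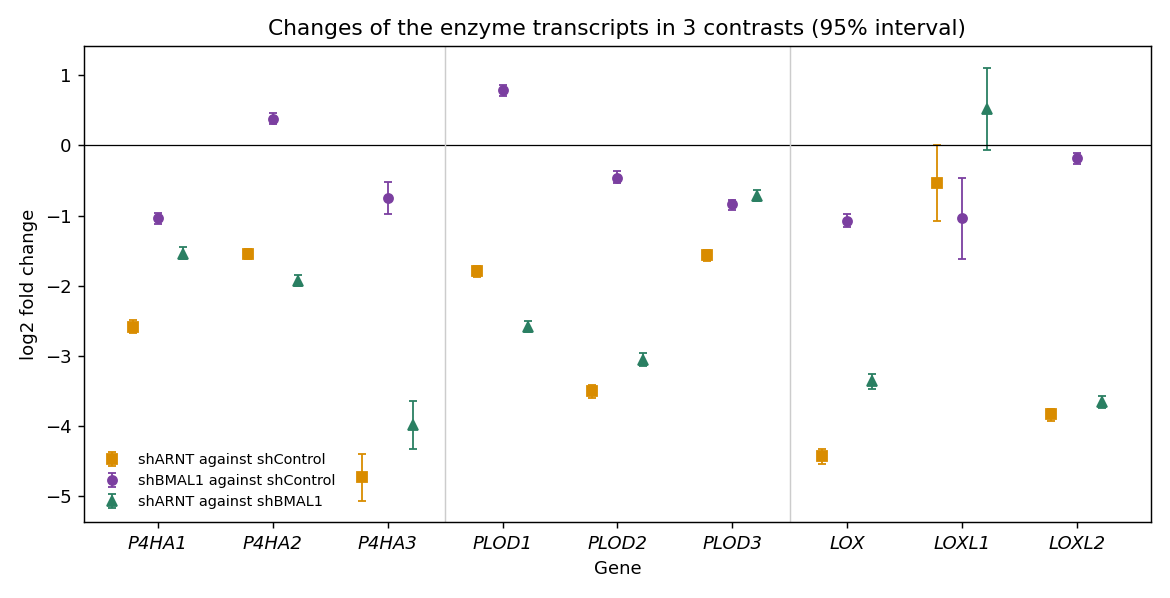
log2 fold changes of the 9 tested enzyme transcripts in 3 contrasts, with 95% intervals from the edgeR fit and a line at 0. Changes in shARNT reach −4.73 for P4HA3, changes in shBMAL1 lie between −1.07 and 0.79, and the interval of LOXL1 includes 0 in the contrasts with shARNT.

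Levels of different genes can be compared once they are divided by transcript length, given here as CPM per kilobase of the canonical transcript (FPKM). In shControl the order was LOXL2 at 1094 ± 16.3 FPKM (SD, n = 3), PLOD2 at 507.1 ± 31.4, PLOD3 at 502.3 ± 11, PLOD1 at 200.3, P4HA1 at 133.6, P4HA2 at 80.45, LOX at 42.71, P4HA3 at 6.658 and LOXL1 at 0.6616. PLOD2 and PLOD3, neighbours in this order, differed by less than their spread, and the other neighbours by more. In shARNT the order was PLOD3 at 170.0, LOXL2 at 76.78, PLOD1 at 57.75, PLOD2 at 44.67, P4HA2 at 27.65, P4HA1 at 22.37, LOX at 1.981, LOXL1 at 0.4592 and P4HA3 at 0.2499. The order below LOXL2 depends on the length used. With the length of all exons joined, the shControl levels were 680.2 for LOXL2, 249.8 for PLOD3, 131 for PLOD2, 118.5 for P4HA1, 112 for PLOD1, 38.74 for LOX and 36.12 for P4HA2, so PLOD3 then stood above PLOD2, P4HA1 above PLOD1 and LOX above P4HA2.

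The makeup of both hydroxylase groups, as shares of the summed FPKM of each group, therefore differed between lines. That of the lysyl oxidases differed little. P4HA1 made up 60.5% ± 1.4 (SD, n = 3) of the alpha subunits in shControl, 37.4% ± 0.59 in shBMAL1 and 44.5% ± 1.3 in shARNT, and P4HA2 took 36.5% ± 1.2, 60.4% ± 0.61 and 55.0% ± 1.4. P4HA2 thus exceeded P4HA1 in all 6 depleted libraries and in none of the 3 controls. That order rests on the transcript length used: with the length of all exons joined, P4HA1 had 74.8%, 53.9% and 61.2%, lower in both depletions but above 50% throughout. Among the lysyl hydroxylases, PLOD1 made up 16.6% ± 0.48 in shControl, 34.7% ± 0.37 in shBMAL1 and 21.2% ± 0.032 in shARNT. PLOD2 held 41.9% ± 2.0, 37.2% ± 0.78 and 16.4% ± 0.27. PLOD3 was the main lysyl hydroxylase transcript in shARNT, at 62.4% ± 0.30 against 41.5% ± 1.5 in shControl and 28.1% ± 0.51 in shBMAL1. With exons joined PLOD3 led in shARNT as well (84.57 FPKM), but also in shControl (249.8, against 131 for PLOD2 and 112 for PLOD1). In shBMAL1 the leader was then PLOD1 (193.5, against 139.1 for PLOD3 and 95.52 for PLOD2), so the order in shControl and shBMAL1 depends on the length. LOXL2 was 96.2%, 97.9% and 96.9% of the lysyl oxidases. The shares are descriptions and carry no test.

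**Figure D3:**
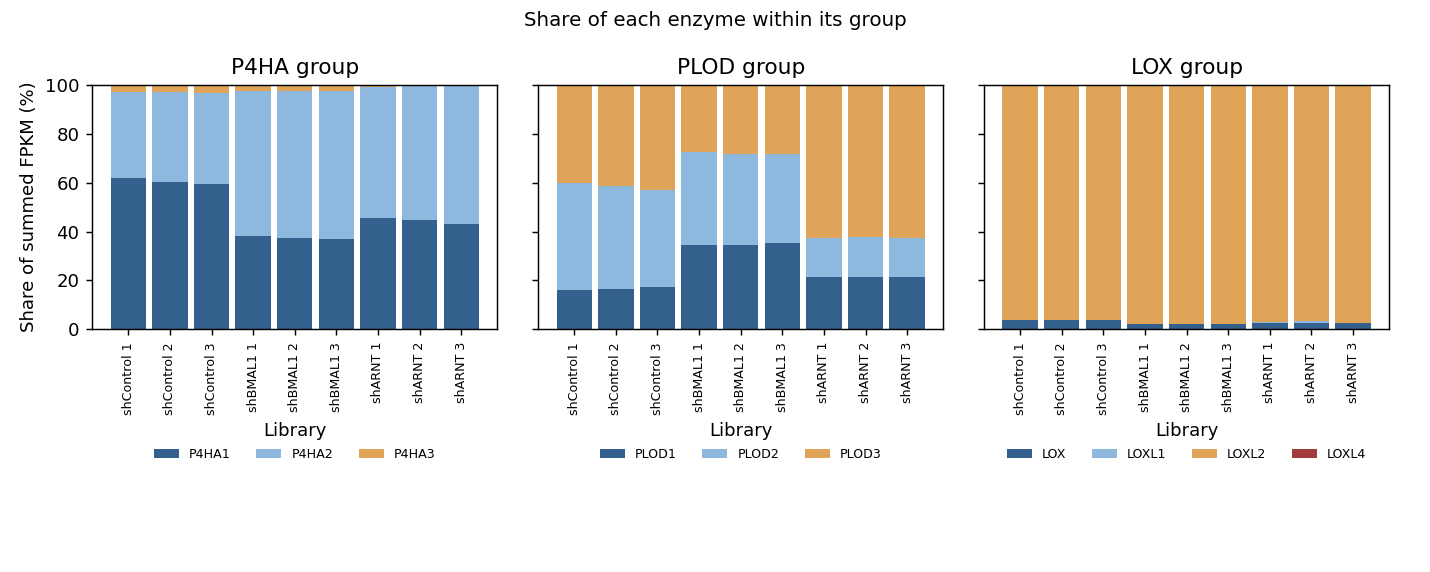
Share of each enzyme in the summed level per transcript length of its group (%), as stacked bars for each of the 9 libraries. The P4HA2 part widens in the shBMAL1 and shARNT libraries, the PLOD1 part is widest in shBMAL1, the PLOD3 part is widest in shARNT, and LOXL2 fills nearly the whole lysyl oxidase bar in each library.

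Summed over each group, the alpha subunits of prolyl 4-hydroxylase were at 221 ± 4.4 FPKM (SD, n = 3) in shControl, 174 ± 3.8 in shBMAL1 and 50.3 ± 0.85 in shARNT. The lysyl hydroxylases were at 1210 ± 18, 995 ± 13 and 272 ± 13 FPKM, and the lysyl oxidases at 1140 ± 17, 987 ± 26 and 79.2 ± 5.1. With exons joined the sums were 158, 107 and 32.4 for the alpha subunits, 493, 428 and 128 for the lysyl hydroxylases and 719, 620 and 49.8 for the lysyl oxidases, so which of the last 2 groups is the larger in shControl and shBMAL1 depends on the length. With either length, each sum was lowest in shARNT. The rises of P4HA2 and PLOD1 in shBMAL1 left both hydroxylase sums below shControl with either length.

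The partners of these enzymes were read from a list of 28 collagen processing genes, all of them tested. This list was written with earlier results of these data known. In shARNT against shControl 20 were lower, 6 higher and 2 not called (median −0.89), and in shBMAL1 10 were lower, 13 higher and 5 not called (median 0.08). The direct contrast had 18 lower, 8 higher and 2 not called (median −1.07). As shares of the list, 71.4% were lower and 21.4% higher in shARNT, beside 41.3% and 40.5% of all genes, and 35.7% were lower and 46.4% higher in shBMAL1, beside 31.5% and 31.9%. The direct contrast had 64.3% and 28.6%, beside 41.1% and 40.1%. P4HB, the beta subunit that P4HA1, P4HA2 and P4HA3 all need, had log2 fold changes of −1.46 in shARNT (SE 0.0316, adjusted p = 2.9e-19) and −0.19 in shBMAL1 (SE 0.0309, adjusted p = 3.27e-05), the latter −0.11 once the GC trend was removed. Its mean level was 3610 CPM in shControl, 3173 in shBMAL1 and 1316 in shARNT, so its change in shARNT was smaller in size than those of P4HA1 and P4HA3 and close to that of P4HA2, differences between genes that were not tested.

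FKBP10 and PPIB, prolyl isomerases of the endoplasmic reticulum, fell in shARNT, with log2 fold changes of −2.12 and −2.26 (adjusted p = 5.02e-21 and 6.25e-20). In shBMAL1 their estimates were 0.07 and 0.08 (adjusted p = 0.0781 and 0.109), and both calls changed when some single libraries were left out. With the GC trend removed they were 0.17 and 0.11 (adjusted p = 4.5e-04 and 0.0186), and with library size alone 0.12 and 0.13 (adjusted p = 0.00593 and 0.0111). FKBP10 helps PLOD2 to act on telopeptide lysines, and both fell in shARNT, at −2.12 and −3.50. BMP1, the protease that trims procollagen and activates LOX, fell in shARNT (−2.11, adjusted p = 9.49e-21) and less in shBMAL1 (−0.26, adjusted p = 2.13e-06, and −0.15 once the GC trend was removed).

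SERPINH1, the collagen chaperone HSP47, was lowest in shBMAL1. Its level was 519.7, 512.6 and 534.8 CPM in shControl, 136.4, 141.8 and 135.9 in shBMAL1 and 526.2, 563.2 and 586.6 in shARNT. Only the shBMAL1 libraries stood apart (log2 fold change −1.92, SE 0.0423, adjusted p = 9.3e-18), whereas shARNT overlapped the controls (0.10, adjusted p = 0.034, lost without shControl replicate 2 or shARNT replicate 3, at 0.08 and 0.06). With library size alone that value was 0.33 (adjusted p = 1.5e-07), and with the GC trend removed it was 0.30 (adjusted p = 7.29e-07). KDELR2, the receptor that returns chaperones to the endoplasmic reticulum, fell in both lines, with log2 fold changes of −0.95 in shBMAL1 and −0.54 in shARNT, and MIA3, which loads collagen into transport vesicles, rose in both, by 0.64 and 0.45. With library size alone the shARNT values were −0.30 and 0.69. LOXL3, the remaining lysyl oxidase, was at 3.073 ± 0.121 CPM in shControl, 2.553 ± 0.32 in shBMAL1 and 2.407 ± 0.424 in shARNT. Its log2 fold change of −0.35 in shARNT (adjusted p = 0.0711) was not called with DESeq2 (adjusted p = 0.15) or in 4 of the 6 fits without a library of these groups, and that of −0.27 in shBMAL1 was not called (adjusted p = 0.204).

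The substrates were read from 23 genes for collagen chains and elastin, also listed with earlier results of these data known. Of these 19 were tested, while COL1A2, COL2A1, COL3A1 and COL11A1 did not pass the filter. In shARNT 15 were lower, 3 higher and 1 not called (median −1.31), in shBMAL1 9 were lower, 9 higher and 1 not called (median −0.06), and the direct contrast had 15 lower and 4 higher (median −1.32). These are 78.9% lower and 15.8% higher in shARNT (41.3% and 40.5% of all genes), 47.4% each way in shBMAL1 (31.5% and 31.9%), and 78.9% and 21.1% in the direct contrast (41.1% and 40.1%). COL5A1, a fibrillar chain, was at 1383 ± 11 CPM (SD, n = 3) in shControl, 1805 ± 62.8 in shBMAL1 and 124.8 ± 6.48 in shARNT, with log2 fold changes of 0.38 and −3.47, a rise and a fall as for P4HA2 and PLOD1. COL6A1, a chain of the beaded collagen VI, likewise rose by 0.82 in shBMAL1 and fell by 1.32 in shARNT. COL6A2 from the same trimer fell by 1.85 in shARNT and had an estimate of 0.07 in shBMAL1, which was not called without shControl replicate 2 or 3 or without shBMAL1 replicate 2 or 3. That estimate was 0.24 with the GC trend removed (adjusted p = 4.74e-06) and 0.12 with library size alone (adjusted p = 0.00352).

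COL1A1, the main chain of fibrillar collagen I, fell in both lines, with log2 fold changes of −2.38 in shARNT and −2.73 in shBMAL1. It was at 229.0, 238.6 and 242.4 CPM in shControl, 36.77, 33.7 and 36.64 in shBMAL1 and 45.07, 40.55 and 50.52 in shARNT. The other collagen I chain, COL1A2, had 2, 3 and 0 counts in shControl, 0, 0 and 3 in shBMAL1 and 0 in shARNT, and was not tested. Unlike the 8 enzymes called in the direct contrast, COL1A1 was higher in shARNT than in shBMAL1 there (0.35, SE 0.0644, adjusted p = 6.24e-05). COL5A3 had log2 fold changes of −4.78 in shARNT and −1.84 in shBMAL1, and COL18A1, a basement membrane collagen, had −1.13 and −1.01, all of them called lower.

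**Figure D4:**
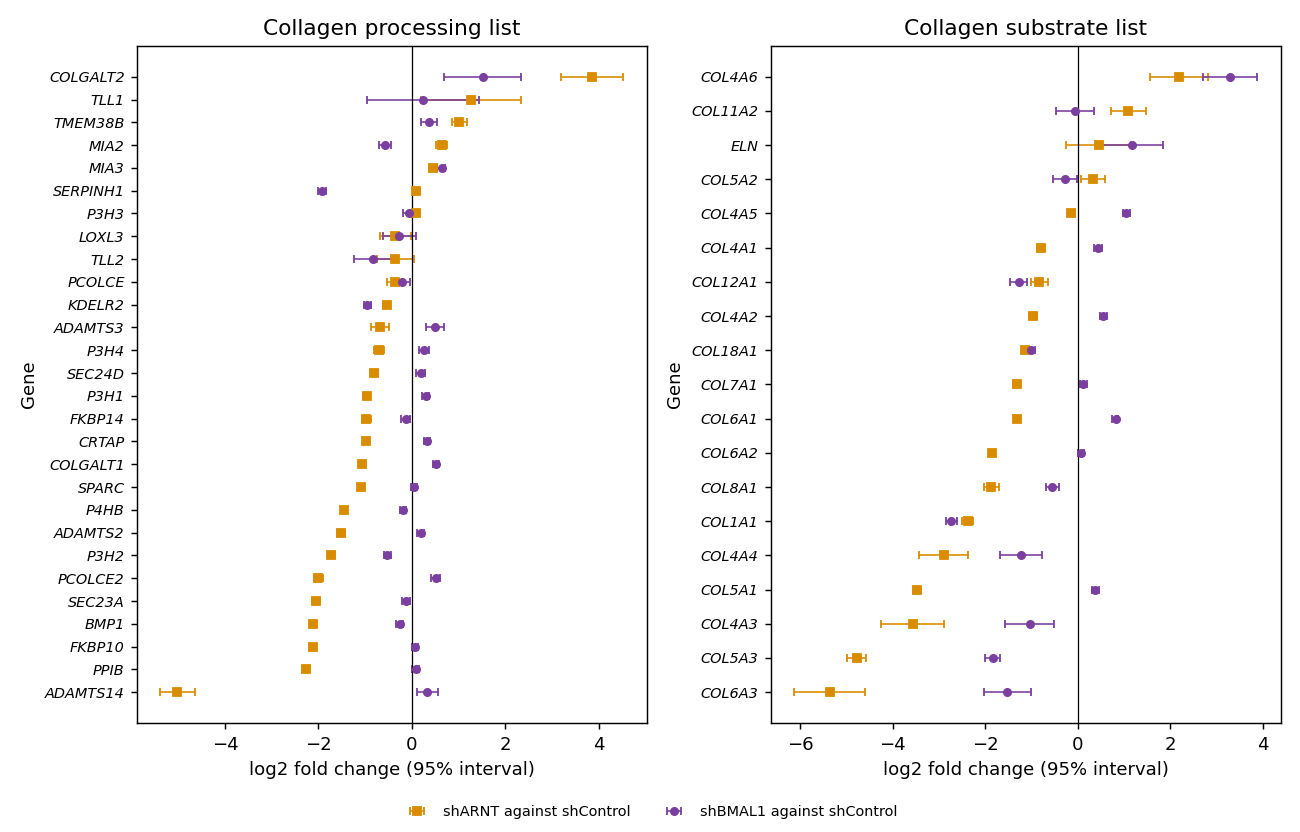
log2 fold changes with 95% intervals of the tested genes of the collagen processing list (left) and the collagen substrate list (right), ordered by the change in shARNT against shControl. Most squares (shARNT) lie left of 0, while the circles (shBMAL1) lie on both sides, and SERPINH1 has its circle at −1.92 and its square at 0.10.

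The genes with the most similar pattern were sought for the enzyme of each group with the highest FPKM averaged over all 9 libraries, which is not the highest of its group in every line, by the root mean square difference of centred log2 CPM over the 9 libraries, among 11227 genes. For P4HA1 these were FGFR4, RHOU and FRMD4A, with differences of 0.092, 0.095 and 0.098. For PLOD3 they were ACLY, DEPTOR and PHF17, at 0.045, 0.067 and 0.070. LOXL2 was closest to SRPX2 (0.085), CD68 (0.095) and ANG (0.115). CD68 is the same transcript that carried the leukocyte marker sum, which was 1790 to 1900 CPM in shControl, 136 to 148 in shARNT and 1750 to 1860 in shBMAL1.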

How the data were processed

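RNA from 9 A498 cultures, 3 per group, had been made into stranded mRNA libraries. The paper's methods name GRCh37, SeqMan NGen and ArrayStar, whereas the submitters' processing notes name STAR, hg38 and DESeq2, so the build of the counts is uncertain. The deposited values were expected counts per gene, which the authors had not normalized, with 720 to 787 fractional values per library. The annotation, the use of strand and the handling of reads with several alignments are not given in the sources used here. Where the counting shared reads between overlapping genes, such genes are uncertain.

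A value of 0.05 stood for no reads and was set to 0, values were rounded, and rows sharing 1 of 45 names were summed. Tests were the quasi-likelihood F-tests of the edgeR package (version 4.0.16, R 4.3.3), fitted on all 9 libraries with group as the only term, TMM scaling and the filterByExpr filter (15551 genes). SEs were derived from the F statistic. P-values and intervals weigh the difference of group means against the spread between the labelled biological replicates. With a single line per target, they do not cover differences between hairpins or between infections, which were not tested. Adjustment ran over all tested genes. Transcript lengths and gene positions came from GENCODE release 44 on GRCh37, in which 21072 gene names matched directly, 1456 through an older symbol and 5143 not at all. Promoter windows came from a separate RefSeq table on GRCh38.p14 and were joined by symbol only.

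Genes named were the 10 enzymes, ARNT, BMAL1, EPAS1 and HIF1A, then P4HB, SERPINH1, LOXL3 and the 3 smallest p of each list and contrast, and the 3 most similar genes per enzyme group whose average log2 CPM was 2 or more. The members and lists were chosen with earlier results of these data known. Same-numbered replicates of different groups did not deviate together (correlations of −0.041 to 0.075). The scripts were tested on simulated counts. Alternatives were DESeq2 1.42.0, library size alone, other filters, halved counts, a minimum fold of 1.5, an adjusted p under 0.05, removal of a GC trend (GC known for 90.1% of tested genes), the compared libraries only, a replicate block, and leaving out each library. A further gene of the epithelial marker list is not reported here.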

Additional observations from a re-analysis of the deposited data

Results flagged for a closer look

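The effect of depletion differed between the 2 lines, by a test of the difference itself, for 8 of the 9 tested enzymes. The log2 fold change of shARNT against shBMAL1 was −1.54 for P4HA1, −1.93 for P4HA2 and −3.98 for P4HA3. For the lysyl hydroxylases it was −2.58 for PLOD1, −3.05 for PLOD2 and −0.72 for PLOD3, and for the lysyl oxidases −3.36 for LOX and −3.65 for LOXL2. Across the genome 41.1% of tested genes were lower and 40.1% higher in this contrast.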

How the results depend on the processing

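The 27 tested changes of the enzymes gave 513 values under 19 alternatives. Of these, 495 kept their direction and their side of the threshold, 15 were no longer called, 3 were newly called and 0 reversed. An adjusted p under 0.05 and a minimum fold change of 1.5 keep the main estimates, so neither could reverse a change. For each contrast, some fits left out a library of the group that was not compared. With a minimum fold change of 1.5, 3 enzymes were lower (7 in the main test) and 1 higher (2) in shBMAL1. In that setting the processing list had 2 genes higher in shARNT (6), 2 lower (10) and 1 higher (13) in shBMAL1 and 3 higher in the direct contrast (8), and the substrate list had 3 higher in shBMAL1 (9) and 1 higher in the direct contrast (4). With library size alone, the substrate list had 5 genes higher in shARNT (3), and 1 enzyme, LOXL1, was higher in the direct contrast (0). Leaving out single libraries moved that count between 0 and 1, the higher value without shBMAL1 replicate 1 or shARNT replicate 3. The direct contrast reversed with library size alone for HIF1A (0.08), LOXL3 (0.11), COL18A1 (0.07) and MIA3 (0.00), and for LOXL3 also with the GC trend removed (0.06). Without single libraries LOXL3 lay between −0.23 and 0.02 there. The replicate block left 8 enzymes lower in shARNT (9 in the main test), because LOXL1 had an adjusted p of 0.102, and 7 lower and 2 higher in shBMAL1. P4HA3 in shARNT lay between −4.96 and −4.43 over all alternatives. The cause of these shifts was not tested. With exons joined, P4HA1 had 74.8%, 53.9% and 61.2% of the alpha subunits in shControl, shBMAL1 and shARNT, PLOD2 had 26.6%, 22.3% and 8.98% of the lysyl hydroxylases, and LOXL2 had 94.6%, 97.0% and 95.8% of the lysyl oxidases. Depth limits LOXL1, LOXL4 and the shARNT level of P4HA3.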

Other observations

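Large changes were also found in 3 genes of the collagen lists that were chosen after their values were seen. They are not the only ones. COL6A3, at −5.36 in shARNT, changed more than any of the 3, with 0, 10 and 2 counts in that line. ADAMTS14, a protease that removes the amino propeptide of procollagen, was at 15.53, 14.73 and 15.8 CPM in shControl, 21.09, 20.73 and 16.14 in shBMAL1 and 0.7069, 0.4297 and 0.2772 in shARNT. Its log2 fold change was −5.02 in shARNT (SE 0.184, adjusted p = 1.39e-15) and 0.33 in shBMAL1 (SE 0.114, adjusted p = 0.0179). COLGALT2, which adds galactose to the hydroxylysines that the PLOD enzymes make, went the other way, with 3, 8 and 8 counts in shControl, 26, 15 and 16 in shBMAL1 and 134, 93 and 109 in shARNT. For shARNT the log2 fold change was 3.86 (adjusted p = 2.03e-09), and for shBMAL1 it was 1.52 (adjusted p = 0.00426). COL4A6, a basement membrane chain, had 13, 4 and 19 counts in shControl, 102, 124 and 141 in shBMAL1 and 65, 62 and 70 in shARNT. It rose in shBMAL1 (3.29, adjusted p = 1.33e-08) as well as in shARNT (2.18, adjusted p = 3.75e-06). The more abundant basement membrane chains COL4A1 and COL4A2 fell in shARNT (−0.79 and −0.97) and rose in shBMAL1 (0.44 and 0.55).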
